A study of Mus musculus with 44 samples.

Results

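Myc, Klf2, Klf9 and Bhlhe40 are 4 genes for transcription factors, followed here through the m6A peaks on their RNA in mouse liver. N6-methyladenosine (m6A) is the commonest internal modification of messenger RNA. Peaks were taken when they carried the Ensembl identifier of one of the genes or lay inside its span, which gave 76 of the 17573 peaks in 8 deposited peak lists, at 4 of 1420 loci with a peak in any list. All 76 were on the plus strand, and each gene had a single identifier.

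The livers came from male C57Bl/6J mice, all on a high-fat diet with 42% of its energy from fat for a study of 12 weeks. A single oral exposure at week 2 gave Aroclor1260 (a commercial mixture of highly chlorinated biphenyls), PCB126 (a single coplanar congener, an aryl hydrocarbon receptor agonist) or both together (the combination), and the controls received vehicle. Each treatment had 5 m6A immunoprecipitates, 5 input libraries and 1 immunoprecipitate of pooled material with control IgG. Doses and the age of the mice were not among the labels used here, and the labels name no other allele or agent.

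Each list was a single set of peaks for a whole treatment, called against input or against IgG, with no value for any single mouse. The spread between mice therefore could not be measured, no test between treatments was possible, and every number below describes a list. The fold enrichment is the linear ratio of m6A immunoprecipitate over reference for a peak, as the authors' caller gave it, and the false discovery rate (FDR) is also the authors'. The read depth behind the lists is unknown. Against input the lists held 506 peaks after Aroclor1260, 2178 after PCB126, 2284 after the combination and 620 in the control. Against IgG they held 2082, 4129, 3683 and 2091 in the same order. In bulk liver, fewer cells of a type and less RNA per cell cannot be told apart.

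As background, Myc is a growth-promoting factor that pairs with Max on E-box sequences, and its short-lived mRNA is a known m6A substrate in other cells. Klf2 and Klf9 are zinc finger factors of the Krüppel-like family. Klf2 maintains the quiescent state of vascular endothelium, and Klf9 is induced by glucocorticoid and thyroid hormone. Bhlhe40, also called Dec1, is a clock-controlled repressor that binds E-boxes and opposes the activators Clock and Arntl. Methyl groups on such transcripts are read by proteins that can alter their stability or translation.

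The 4 genes carried m6A peaks in nearly every condition. Klf2, Klf9 and Bhlhe40 had a peak in all 8 lists, as did 9.93% of all loci (141). Myc had a peak in 7 lists and none in the combination called against IgG, a pattern it shared with 1 other locus (0.141% of loci for the pair). Against input, all 4 genes were present after each exposure and in the control, where the share of all loci with a peak was 16.1% after Aroclor1260, 48.5% after PCB126, 50.6% after the combination and 18.0% in the control. Against IgG, 4, 4, 3 and 4 of the genes were present, beside 42.3%, 77.3%, 70.0% and 42.0% of loci.

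A locus was gained when it was in an exposed list and not in the control list of the same reference, and lost in the opposite case. All 4 genes were in both control lists, so none could be gained. Of the loci outside the control list, 5.58% were gained against input with Aroclor1260, 38.7% with PCB126 and 41.2% with the combination, and against IgG 22.1%, 69.1% and 57.4%. None of the 4 was lost against input, where 35.7%, 7.06% and 6.67% of the loci in the control list were lost with the 3 exposures in the same order. Against IgG, 0 of the 4 were lost with Aroclor1260 (29.8% of control loci) and with PCB126 (11.4%), and 1, Myc, with the combination (12.6%).

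**Figure D1:**
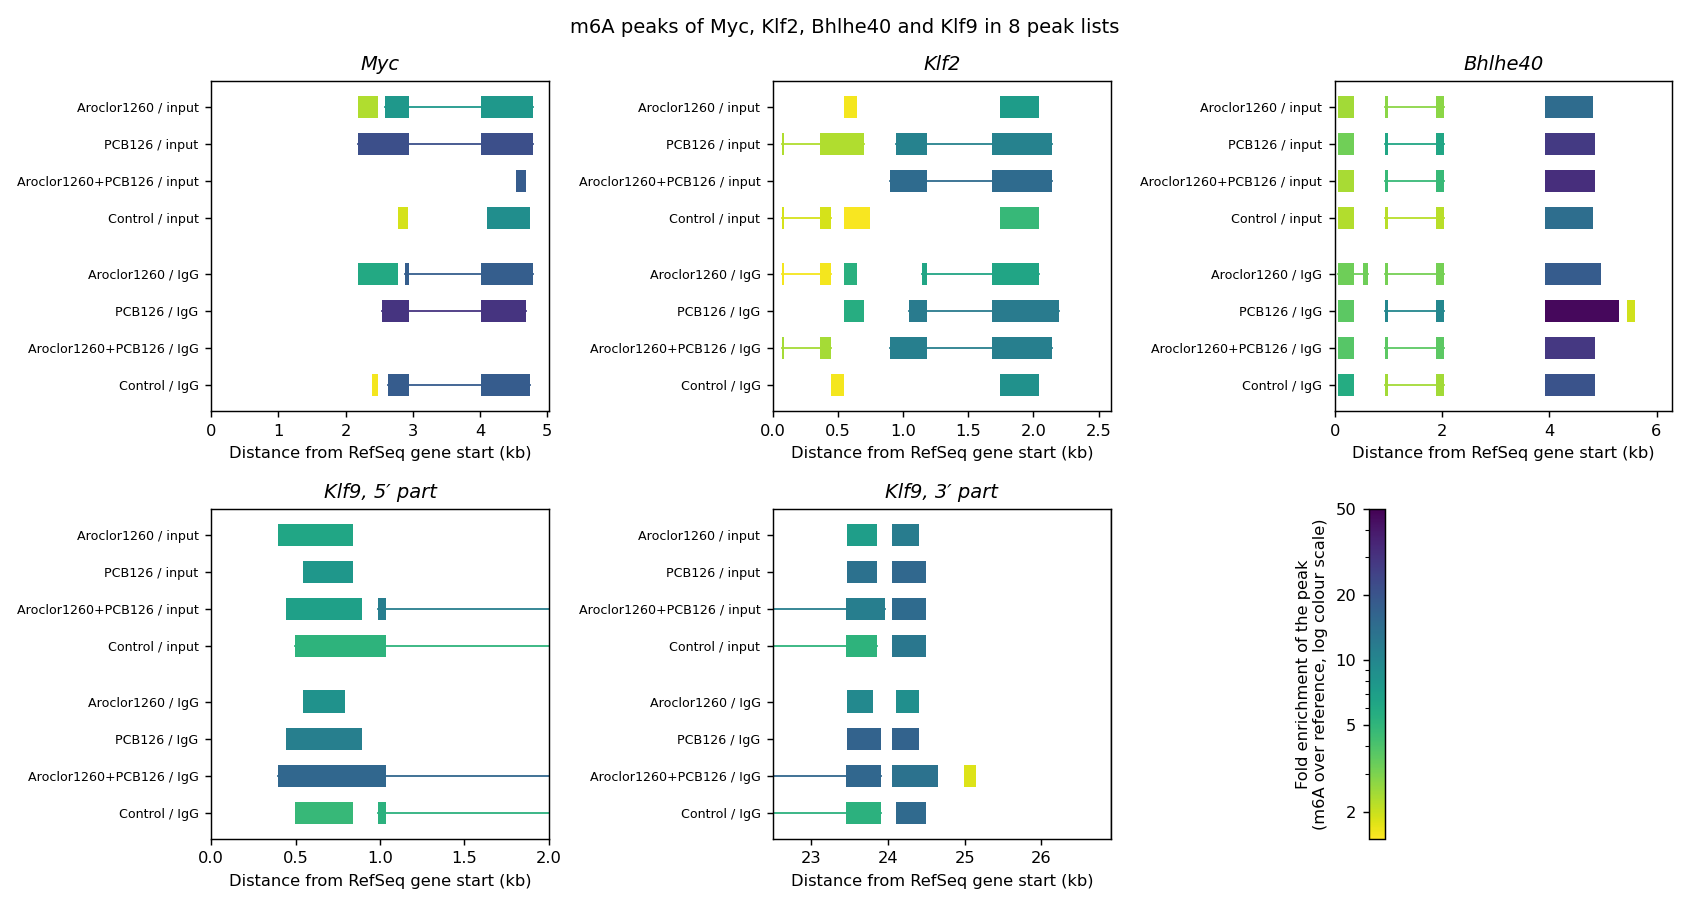
Peaks of each gene by list, drawn as exonic blocks (boxes) joined across introns (lines), against the distance in kb from the RefSeq gene start. Colour gives the fold enrichment on a log scale, and Klf9 is split into its 5′ and 3′ parts. The strong peaks sit towards the 3′ side of Myc, Klf2 and Bhlhe40, and the Myc row for the combination against IgG is empty.

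Bhlhe40 (ENSMUSG00000030103) had the most regular pattern. The gene spans chromosome 6 from 108660629 to 108666925 in mm10, and all but 1 of its 25 peaks fell at the same 3 places, 1 peak at each place in every list. A peak near the 5′ end began at 108660679, 50 bp after the gene start. It ended at 108660976 in 7 of the lists and ran on across an intron of 168 bp after Aroclor1260 against IgG. A second peak, from 108661561 to 108662667, was identical in all 8 lists and joined blocks of 52 and 147 bp across an intron of 908 bp. The strongest peak started at 108664548 in all 8 lists and covered 893 bp common to all of them, ending at 108665440, which is 1485 bp before the gene end.

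At that 3′ peak, fold enrichment over input was 14.7 after Aroclor1260, 27.5 after PCB126, 31.6 after the combination and 14.3 in the control. Over IgG it was 18.2, 46.6, 28.2 and 20.5. The values after PCB126 and the combination lay above the control value with both references, and the value after Aroclor1260 lay just above it with input and below it with IgG. Within its own list this peak was among the strongest of any gene, since Bhlhe40 ranked 7 of 229 loci by highest fold after Aroclor1260, 10 of 688 after PCB126, 5 of 718 after the combination and 8 of 255 in the control.

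The other Bhlhe40 peaks were weaker. The intron-spanning peak had folds over input of 2.76 after Aroclor1260, 6.25 after PCB126, 4.74 after the combination and 2.20 in the control. Over IgG these were 3.11, 9.87, 3.62 and 2.44, so PCB126 had the highest value with either reference. The 5′ peak had folds over input of 2.45, 3.20, 2.37 and 2.24 in the same order of treatments, and over IgG of 3.27, 3.63, 3.78 and 5.75, with the control lowest against input and highest against IgG. PCB126 against IgG had an additional weak peak from 108666083 to 108666232, with a fold of 1.93 and an FDR of 0.00525, which no other list held.

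Klf9 (ENSMUSG00000033863) spans chromosome 19 from 23141226 to 23168129, and all but 1 of its 23 peaks fell at 3 places. The block boundaries of peaks that crossed its long intron put the end of one exon at 23142259 and the start of the next at 23164683, with 22423 bp between them. The first place lay in the upstream exon, where 248 bp from 23141770 to 23142017 were covered in all 8 lists. The other places lay in the downstream exon, with common stretches of 347 bp from 23164687 to 23165033 and of 298 bp from 23165329 to 23165626. The last of these ended 2503 bp before the gene end.

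The highest Klf9 fold over input was 11.6 after Aroclor1260, 15.5 after PCB126, 14.9 after the combination and 12.5 in the control, each at the last of the 3 places. Over IgG the highest folds were 9.57, 16.6, 15.7 and 15.1 in the same order, but not all at that place. The Aroclor1260 value lay at the first place of the downstream exon, and the combination value belonged to a peak that crossed the intron. At the last place the folds over IgG were 8.85, 16.6, 13.4 and 15.1, so the combination lay below the control there. By highest fold over input, Klf9 ranked 17 of 229, 53 of 688, 34 of 718 and 14 of 255 loci. Its highest folds over input thus lay within a narrower range than those of Bhlhe40 (14.3 to 31.6).

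The upstream exon of Klf9 was called in different ways. Against input it was a peak of its own with a fold of 6.30 after Aroclor1260, and likewise with 7.80 after PCB126. After the combination it was a peak with 6.90 followed by an intron-crossing one with 11.3. In the control a single peak crossed the intron, from 23141720 to 23165082, with a fold of 5.17. Against IgG a peak crossed the intron with the combination (15.7) and in the control (5.36), so that it was crossed in 4 lists and never after Aroclor1260 or PCB126. PCB126 had 13.6 at the first place of the downstream exon with an FDR of 5.01e-14, the lowest FDR of any peak of these genes. A weak peak from 23166219 to 23166367 was found with the combination against IgG alone, with a fold of 1.80 and an FDR of 0.0347.

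Klf2 (ENSMUSG00000055148) is a short gene on chromosome 8 from 72319062 to 72321654, and it had 17 peaks. The RefSeq start window of the gene (GRCm38.p6, plus strand) is shown in part because it fixes where the first peaks lie relative to the first ATG after the transcript start, which is in capitals. It covers chr8:72319078-72319107.
Klf2: ATGgcgctcagcgagcctatcttgccgtcc
The most upstream Klf2 peak started at 72319133, 55 bases after this ATG, and its first block of 17 bp ended at 72319149. Block boundaries placed exon junctions at 72319149 to 72319426 and at 72320242 to 72320744.

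The main Klf2 peak lay in the exon that begins at 72320744. Its common stretch of 300 bp, from 72320808 to 72321107, was covered in all 8 lists and ended 547 bp before the gene end. Its fold over input was 7.33 after Aroclor1260, 10.5 after PCB126, 14.9 after the combination and 4.78 in the control. Over IgG it was 6.40, 11.8, 11.1 and 8.60, so Aroclor1260 lay above the control with input and below it with IgG. Klf2 ranked 37 of 229 loci after Aroclor1260, 107 of 688 after PCB126, 34 of 718 after the combination and 98 of 255 in the control against input.

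The extent of the main Klf2 peak also differed. Against input it covered 300 exonic bp after Aroclor1260, 700 bp after PCB126, 749 bp after the combination and 300 bp in the control, and with PCB126 and the combination it reached back across the intron of 501 bp. Against IgG it covered 400 bp after Aroclor1260, 650 bp after PCB126, 749 bp after the combination and 300 bp in the control, and it crossed that intron after all 3 exposures. The weak upstream peaks were variable: against input they numbered 1 after Aroclor1260, 1 after PCB126, 0 after the combination and 2 in the control, with folds from 1.56 to 2.27. Against IgG they numbered 1 or 2 in each list, with folds up to 5.60.

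Myc (ENSMUSG00000022346) spans chromosome 15 from 61985341 to 61990361, and it had 11 peaks, fewer than the other 3 genes. Its peaks lay on both sides of an intron of 1067 bp, between 61988278 and 61989346, and in 5 lists a peak crossed it. The only stretch covered in all 7 lists with a peak was 149 bp long, from 61989880 to 61990028, in the downstream exon and 333 bp before the gene end. The peaks covered 1435 exonic bp after Aroclor1260, 1532 bp after PCB126, 149 bp after the combination and 792 bp in the control against input.

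The highest Myc fold over input was 7.72 after Aroclor1260, 21.4 after PCB126, 18.2 after the combination and 8.93 in the control. Over IgG it was 17.8 after Aroclor1260, 29.4 after PCB126 and 18.2 in the control, with no peak after the combination. PCB126 had the highest value with either reference, and Aroclor1260 lay below the control with both.

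The FDR of Myc did not follow its fold. Against input, the FDR of the strongest Myc peak was 1.48e-06 after Aroclor1260, 0.00145 after PCB126, 0.00468 after the combination and 0.000355 in the control. By highest fold, Myc ranked 20 of 688 loci after PCB126 and 25 of 718 after the combination, whereas by lowest FDR it ranked 669 and 708. In the Aroclor1260 list it ranked 33 of 229 by fold and 141 by FDR, and in the control 29 of 255 and 229. With an FDR of at most 0.001, Myc had no peak against input with PCB126 or the combination, and still had one with Aroclor1260 and in the control. At that limit the lists kept 465 of 506 peaks after Aroclor1260, 2035 of 2178 after PCB126, 2131 of 2284 after the combination and 557 of 620 in the control. The share of all loci lost at the limit was not computed. Against IgG the PCB126 peak had an FDR of 1.15e-06 and passed that limit.

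**Figure D2:**
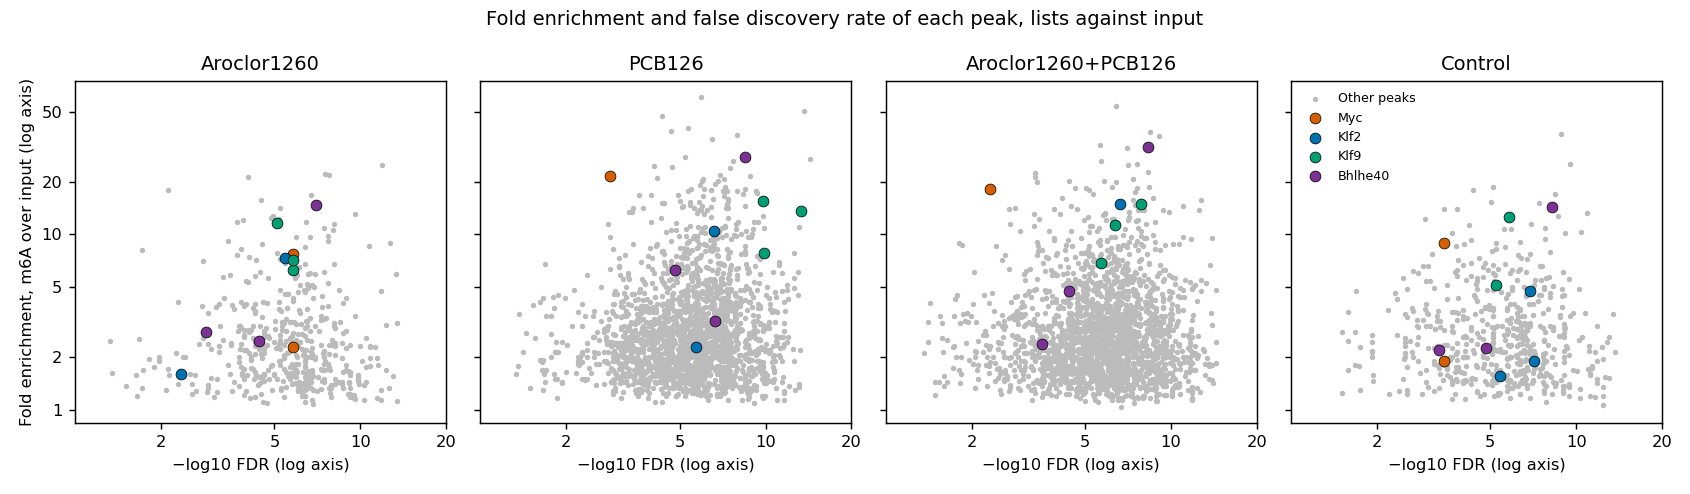
Each point is a peak of a list called against input, with −log10 FDR on the horizontal and fold enrichment on the vertical axis, both log scaled. Peaks with an FDR of 0 (32, 113, 123 and 46 from left to right) are left out. The Myc point lies to the left of most peaks after PCB126 (fold 21.4) and after the combination (18.2). The strongest Bhlhe40 peak lies near the top of every panel.

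The differences in fold between lists were set beside those of all other loci, because the lists differ in length and in general enrichment. Over the 141 loci with a peak in every list, the median highest fold over input was 3.76 after Aroclor1260, 7.77 after PCB126, 7.22 after the combination and 4.29 in the control. Over IgG the medians were 7.20, 11.6, 9.90 and 6.70. The 4 genes thus stood in lists whose common loci had higher median folds after PCB126 and the combination than in the control.

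All 4 genes had a higher highest fold after PCB126 than in the control against input, as did 94.9% of loci present in both lists. With the combination it was again 4 of 4, beside 93.7% of loci. Against IgG it was 4 of 4 with PCB126, beside 82.8%, and 3 of the 3 genes present in both lists with the combination, beside 75.5%. These counts are near the shares of all loci and are no result about the 4 genes. With Aroclor1260, Klf2 and Bhlhe40 were higher and Myc and Klf9 lower against input, 2 of 4 beside 44.5% of loci. Against IgG, 0 of 4 were higher with Aroclor1260, beside 55.6%.

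Ranks within the fixed set of 141 common loci do not move with a shift shared by all of them. Bhlhe40 held rank 7 after Aroclor1260, 6 after PCB126, 4 after the combination and 8 in the control against input, and between 8 and 16 against IgG. Klf9 held ranks 13, 28, 22 and 12 against input, and 49, 52, 40 and 22 against IgG, so that the control had the best rank with both references. Klf2 held ranks 26, 48, 22 and 63 against input, and 81, 70, 65 and 53 against IgG, so that it ranked above its control place in each exposure against input and below it in each against IgG.

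**Figure D3:**
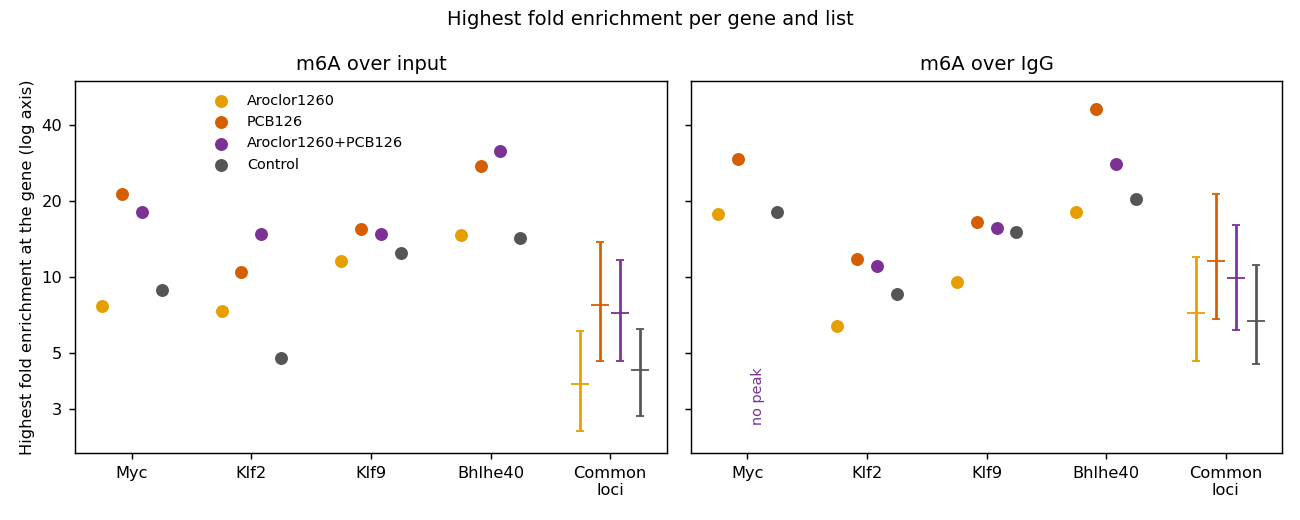
Highest fold enrichment of each gene in each treatment (points, log axis), against input on the left and IgG on the right. The bars at the far right of each panel give the median (middle tick) and quartiles (ends) over the 141 loci present in all lists. Bhlhe40 is the highest of the 4 genes after each exposure and in the control with either reference, and no error can be drawn, since each point is a single value.

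Positions were compared peak by peak, taking any shared base of their spans (1 bp or more, strand alike) as a match. Of the 10 control peaks of these genes against input, Aroclor1260 livers had 9, PCB126 livers 10 and combination livers 7, where the shares over all 620 control peaks were 50%, 88.2% and 87.4%. The control peak missing after Aroclor1260 was the most upstream one of Klf2, and the 3 missing after the combination were both weak Klf2 peaks and the upstream Myc peak. Against IgG, 10, 9 and 8 of 10 control peaks were found in the same order, beside 56.8%, 79.4% and 74.6% of all 2091, and those missing were Myc peaks. With either reference, the shares over all control peaks include peaks at loci with no peak in the exposed list. These genes kept a peak, Myc in the combination against IgG apart. The shares are therefore no like comparison, and the high counts are no result about these genes. The share at loci in both lists was not computed. In the opposite direction, 1 peak against input was in an exposed list and not in the control, the upstream Myc peak after Aroclor1260, from 61987529 to 61987826, with a fold of 2.28. That is 1 of 10 peaks of these genes after Aroclor1260, 0 of 9 after PCB126 and 0 of 8 after the combination, where 36.4%, 79.3% and 79.6% of all peaks of the exposed lists had no control match. Against IgG there were 0 of 11 after Aroclor1260 (41.1% of all peaks) and 1 of 10 after PCB126 (64.2%), the additional Bhlhe40 peak. After the combination there was 1 of 8 (59.7%), the additional Klf9 peak. With either reference, the shares of all peaks without a control match include peaks at loci absent from the control list. These genes all had control peaks, so the shares are no like comparison and the low counts are no result about these genes. The share at loci with a control peak was not computed.

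Counts for related gene lists were read beside the share of all protein-coding RefSeq genes with a peak, which against input was 0.941% after Aroclor1260, 2.85% after PCB126, 2.94% after the combination and 1.02% in the control, and against IgG 2.47%, 4.58%, 4.11% and 2.45%. The lists contain the 4 genes themselves, so their counts are a description. Of 17 Klf genes, 3 had a peak against input after Aroclor1260, 5 after PCB126, 4 after the combination and 3 in the control. Klf15, a fasting-responsive regulator of amino acid and glucose metabolism in liver, was the third Klf gene present in all 8 lists, with highest folds over input of 5.26, 9.79, 8.59 and 4.84 in that order. Klf13 was gained with PCB126 (4.67) and the combination (3.12) and also against IgG (3.40 and 5.40), and Klf11 had a peak after PCB126 against input alone (2.86).

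Of 25 circadian clock genes, 1, 3, 2 and 2 had a peak against input, and Bhlhe40 was the strongest of them in each list. Dbp, a clock output factor, had folds of 3.62 after PCB126, 4.12 after the combination and 2.25 in the control, and no peak after Aroclor1260 against input, although it had 6 peaks up to 3.60 there against IgG. Rora, a nuclear receptor that activates Arntl, had 4 peaks up to 15.1 after PCB126 against input and none in any other list. None of the 12 clock genes known to lie on the minus strand had a peak in any list. The plus strand held 95.2% of all deposited peaks, so a gene without a peak cannot be taken as unmethylated.

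Of 13 listed genes of the Myc network, Myc alone had a peak against input in any treatment. Bmyc, a Myc relative outside that list, had 2, 2, 3 and 2 peaks against input after Aroclor1260, PCB126, the combination and in the control, with highest folds of 2.33, 4.36, 5.88 and 3.12. Against IgG its highest fold was greatest after PCB126, at 10.2, against 2.70 in the control. Against IgG, Mlxipl, which encodes the glucose-responsive factor ChREBP, had folds of 4.20, 6.60, 2.93 and 5.20 after Aroclor1260, PCB126, the combination and in the control. Mga, a Max partner, had 10 peaks up to 12.8 after PCB126 and 10 up to 7.40 after the combination, and none in the other 2 lists against IgG. Of 11 known Myc targets in ribosome making and growth, such as Ncl and Odc1, 0 had a peak in any of the 8 lists, beside 5.86% of all protein-coding genes, so this count is no result about those targets.

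Of 20 immediate early genes, 2, 3, 3 and 1 had a peak against input in the same order. Jund was the strongest, with 24.9, 50.5, 53.9 and 37.3. Egr1, a growth-factor-induced zinc finger factor, had 4.10, 7.50 and 8.86 after the 3 exposures and no control peak against input, but 4 control peaks up to 5.10 against IgG. Jun had 6.00 after PCB126 and 4.83 after the combination. Of 11 glucocorticoid-induced genes, Klf9 and Errfi1, an inhibitor of the epidermal growth factor receptor, had a peak in every list. Errfi1 had folds over input of 3.76, 7.51, 7.70 and 3.74, and Tat, a hepatic amino acid enzyme, had 1.65 after PCB126, 1.94 after the combination and 1.25 in the control.

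**Figure D4:**
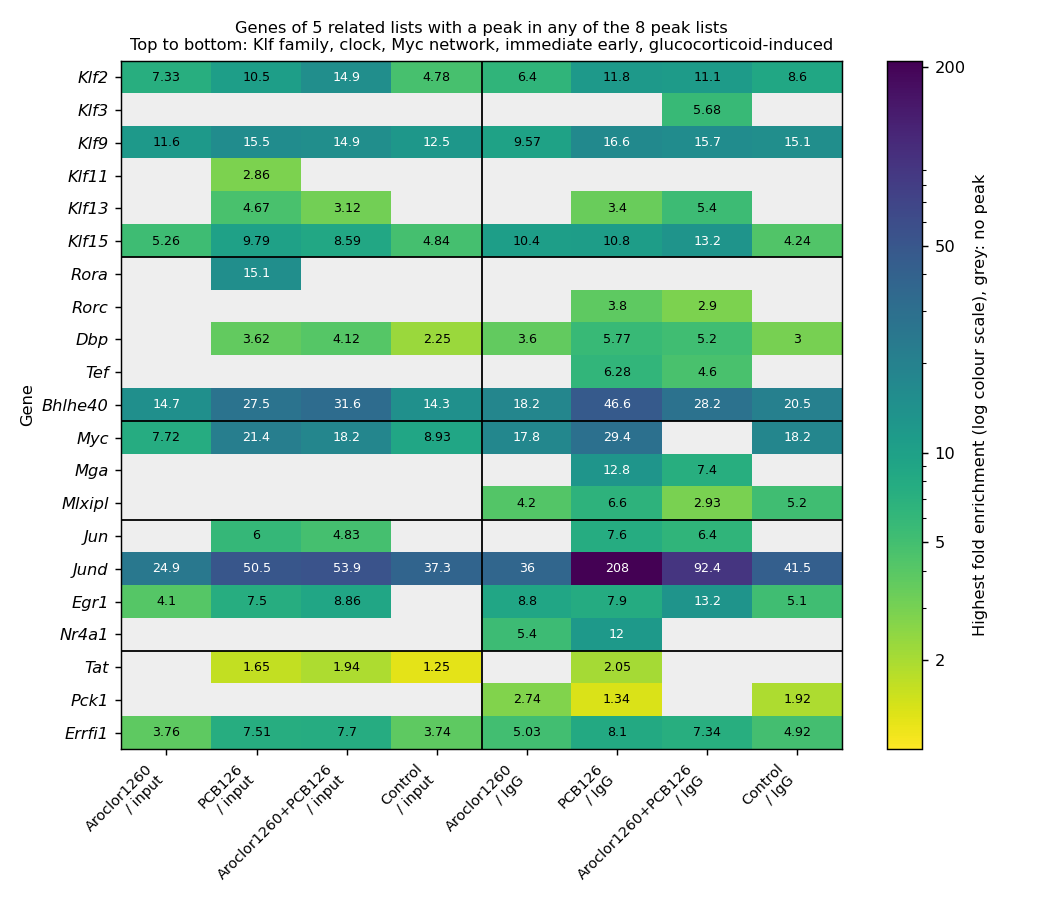
Highest fold enrichment (colour, log scale, with the value printed) of each gene of the 5 related lists that had a peak, by treatment and reference, with grey for no peak. Klf2, Klf9, Klf15, Bhlhe40, Jund and Errfi1 are filled in all 8 columns, and Myc lacks the combination against IgG.

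The loci with the most similar pattern were sought by the distance between log2 highest folds over the 8 lists, with 0 for no peak. For Bhlhe40 the nearest named loci were Ubtd1 (distance 0.79) and Bmp2 (1.41). For Klf9 they were Rest (0.98), Apoa5 (1.11) and Crp (1.14), and for Klf2 they were Trib1 (1.11) and Wbp1l (1.18). For Myc the 0 in the combination against IgG set the order: the nearest locus, at 3.20, was an identifier with no RefSeq name that also lacked that peak, followed by Mgat1 (3.47) and Ppp1r3b (3.75). Over the 7 lists in which Myc had a peak, the nearest were Crp (0.56), Rest (0.81) and Arf6 (0.88).

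Peaks on marker genes were counted as a check of the labelled tissue, although a peak does not measure expression. Of 8 hepatocyte markers, 1 had a peak against input after Aroclor1260, 3 after PCB126, 5 after the combination and 3 in the control, among them Apoa1 in every list. Of all protein-coding genes, 0.941%, 2.85%, 2.94% and 1.02% had a peak against input in the same order. Of 11 markers of liver endothelium, in which Klf2 is best known, 1 had a peak against input in each list, Bmp2, with highest folds of 15.7, 47.2, 32.2 and 18.6. Cdh5 had a peak against IgG after each exposure (4.20, 6.40 and 8.20) and none in the control. Of the loci outside that control list, 22.1%, 69.1% and 57.4% were gained with the 3 exposures. The other 9, among them Pecam1, Kdr, Stab2 and Nos3, had none in any list, and 5 of the 11 are known to lie on the minus strand. Stellate cell and lymphocyte markers (6 and 8 genes) had 0 peaks, and of the Kupffer cell and cholangiocyte markers only Cd5l and Spp1 had one. With a peak in any list on 5.86% of all protein-coding genes, such low counts are no result about those cell types. The part of cell composition in the Klf2 values was not tested.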

How the data were processed

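The submitters' processing notes name BWA 0.7.17, Trimmomatic, FastQC 0.10.1 and bcl2fastq 2.20.0.422, and mm10 as build. Their order and settings, and the caller's version and annotation, are not stated there. The 8 deposited lists are titled as MeTPeak output. Per the file headers, each peak has a fold enrichment (a ratio), a p-value and the log10 of its FDR, all computed by the authors.

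Peaks were read with Python 3.11.15 and pandas 2.3.3, and coordinates are counted from 1. The 1512 Ensembl identifiers were named by position with the RefSeq table of GRCm38.p6, taking the gene that held at least 80% of the exonic peak bases, and 1395 were named. Identifiers with 1 name formed a locus. Exon ends were read from peak blocks, since that table gives spans without exons. Klf2 and Klf9 were in the RefSeq start window table, and Myc and Bhlhe40 were not matched there. The overlap and naming steps were checked on simulated data. The members and gene lists were chosen with earlier results of these data known. The text names the 4 genes and, of the 3 nearest loci of each, those with a RefSeq name. List members with a peak are also named, up to 6 a list. Those with a peak only against IgG (Mga, Mlxipl, Cdh5, Spp1), Bmyc, the Myc neighbours over 7 lists (Crp, Rest, Arf6) and examples with no peak were named after their values were seen. Alternatives were the reference, fold, FDR, list length, matching, strand and overlap.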

Additional observations from a re-analysis of the deposited data

How the results depend on the processing

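Over 13 counts, 96 alternative values were computed, and 85 stayed equal to the main count or within 1.5 times it. A fall from 4 genes present to 3, the loss of Myc, counted as within that limit. With all 4 genes in both control lists, a gain was possible only where a setting removed a control peak. The total is therefore no measure of how firm the results are. Matching by identifier alone, by position alone, on the plus strand alone or with a fold of at least 2 changed no count of genes present, gained or lost. The strand setting could change none, since all 76 peaks were on the plus strand. Nor could the fold setting, since every highest fold of these genes over input was at least 4.78. Identifiers were named by position, so those 2 settings are not independent. These unchanged counts are therefore no check of the results. With IgG in place of input, 1 gene (Myc) was lost with the combination, and the same held with IgG and an FDR of at most 0.001 (1) and with IgG and lists of equal length (1), both chosen after the data were seen. With an FDR of at most 0.001 against input, 1 gene (Myc) was lost with PCB126 and 1 with the combination. The share of all control loci lost at that limit was not computed. Every list against input was also cut to 506 peaks by FDR. Then 2 genes were present after PCB126, 1 after the combination and 3 in the control. Under this cut 1 gene was gained with Aroclor1260, 1 lost with PCB126 and 2 lost with the combination. The cut keeps fewer peaks of the long lists by construction. Shares of all loci present, gained or lost were not computed for this cut or for IgG with either limit. A reciprocal overlap of 50% matched 6 of 10 control peaks with Aroclor1260, 5 with PCB126 and 5 with the combination, beside 35.3%, 45.6% and 49.7% of all control peaks. Those shares also include control peaks at loci with no peak in the exposed list, so they are no like comparison. The distance from Myc to its nearest locus was 3.20 over 8 lists and 0.56 over the 7 lists with a Myc peak, a choice made after the data were seen. No replicate could be left out, and no paired analysis was possible because each list pools the 5 animals of a treatment. The read depth of each list is unknown.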

Other observations

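The caller's p-values were often shared between peaks of 1 gene. Both Myc peaks after Aroclor1260 against input had a p-value of 1.4e-07 with folds of 2.28 and 7.72, and both control peaks had 5.2e-05 with folds of 1.88 and 8.93. Among identifiers with several peaks, 74.4% of those after Aroclor1260, 83.8% after PCB126, 80.3% after the combination and 83.4% in the control had at least a pair of peaks with the same printed p-value against input. The control Myc peaks against IgG also shared a p-value, 9.1e-06, but had FDR values of 0.000871 and 2.69e-05.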
